A study of Mus musculus with 12 samples.

Results

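RNA polymerase II, the enzyme that transcribes protein-coding genes, was followed with the complexes that bring it to promoters in mouse blastocysts, the preimplantation embryos whose inner cell mass is enclosed by the trophectoderm. The members were the probe sets annotated to exactly 1 gene whose symbol names an RNA polymerase II subunit (Polr2a to Polr2m), a Mediator subunit (Med and a number), a subunit of TFIIA, TFIIB, TFIIE, TFIIF or TFIIH (Gtf2a, b, e, f, h) or a TAF (TBP-associated factor, Taf and a number). They stood for 77 of 18193 genes and made up 140 of 45037 probe sets: 15 probe sets for RNA polymerase II, 64 for Mediator, 20 for the general factors, 40 for the TAFs and 1 for Med9os. Med9os matched by its symbol only and is not a Mediator subunit. In all, 120 members of 72 genes averaged a signal of 100 or more on the 12 arrays and were tested. The 5 genes without a tested probe set were Gtf2a1l, Med9os, Taf15, Taf7l2 and Taf9b. The symbols Polr2k, Polr2l and Taf9 stood only on probe sets shared with another gene and were not analysed here.

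Expression was measured on 12 arrays of total RNA. By their labels, 4 arrays carried control (normal) blastocysts, 4 carried blastocysts after treatment with 20 Ca2+ pulses and 4 carried blastocysts cultured in Ca2+ free medium. The series title concerns the pattern of Ca2+ oscillations in fertilised eggs, and each comparison asks which of these genes differed in the blastocyst between treatments. The labels place both treatments on the blastocyst, and the sources used here do not say at which stage they were given. Strain, embryo number per array, pulse form, time in medium and whether replicates came from separate collections are likewise not stated. P-values therefore measure only the spread between these samples, which may be technical. In RNA of whole embryos, fewer cells of a type and less RNA per cell cannot be told apart.

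Transcription by RNA polymerase II starts when the general factors assemble with the enzyme on a promoter. TFIID, made of TBP and the TAFs, reads the core promoter, TFIIA and TFIIB join, TFIIF brings the polymerase, and TFIIE and TFIIH open the DNA. Mediator bridges activators bound to distant sites and the polymerase: its head and middle contact the enzyme, its tail contacts activators, and a separable kinase module controls that contact. Embryos depend on this machinery from the activation of their own genome onwards.

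The labels give all arrays as blastocysts. Pou5f1, Nanog and Sox2 of the inner cell mass and Cdx2, Eomes, Krt8 and Krt18 of the trophectoderm all had a mean signal of 100 or more. So did all 5 listed markers of oviduct and uterine epithelium, all 4 of the oocyte and 1 of 2 measured blood markers. A signal of 100 therefore does not tell these sources apart. The summed signal of the 3 inner cell mass markers ranged from 12192 to 14336 in control, 12642 to 14348 after 20 pulses and 12812 to 15375 in Ca-free medium. Single embryo markers did change there: Pou5f1 (log2 change 0.20) and a probe set of Cdx2 (0.28) rose, and probe sets of Eomes (-0.70), Gata4 (-0.69) and Pdgfra (-0.64) fell. The primitive endoderm markers summed to 5715 to 6468 in control, 6699 to 7261 after 20 pulses and 5503 to 7048 in Ca-free medium, and a Sox17 probe set rose after 20 pulses (1.00). Markers of oviduct and uterine epithelium summed to 1160 to 1318, 961 to 1135 and 559 to 829, and 4 of their 5 genes fell in Ca-free medium. Of the 6 cumulus granulosa markers, 1 (Inha) had a mean signal of 100 or more, and their sum was 675 to 822 in control and 449 to 506 in Ca-free medium. The oocyte markers summed to 1364 to 1649 in control, 1055 to 1402 after 20 pulses and 1222 to 1751 in Ca-free medium. The 5' signal of 18S rRNA was 2409 and 2559 for the first 2 controls but 878 and 883 for the others, and 4003 to 5780 in Ca-free medium. The 3' to 5' ratio of Actb split the controls the same way, at 1.59 and 1.67 against 2.69 and 2.64, and was 1.69 to 1.88 in Ca-free medium. That of Gapdh set all Ca-free arrays apart, at 2.89 to 5.05 against 5.76 to 8.90 in control and 5.70 to 7.58 after 20 pulses. The part of these differences in the results was not tested. The controls thus formed pairs, and the fit was repeated with each pair alone. For the probe sets named by rule, calls that ended in such a fit are given below. Those fits have fewer arrays than the fit with all controls.

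Against control, the subunits of RNA polymerase II rose together in blastocysts from Ca-free medium, by 1.16 to 1.41 times in the brightest probe set of each of 9 genes (limma, adjusted p under 0.05; arrays scaled to a common trimmed mean). Polr2a, the catalytic subunit with the repeated C-terminal tail, and Polr2b, which forms the active centre with it, were among them. Of 13 tested probe sets, 9 were called higher and 2 lower, and the median log2 change was 0.27. Over all 27808 tested probe sets 10.6% were called higher and 29.7% lower, and the median was -0.18. Against probe sets of like signal the gap was smaller. From 1000 to 3000 the polymerase median was 0.33 (4 probe sets) against 0.09 for all, of which 26.2% were called higher. Above 3000 it was 0.35 (7 probe sets) against 0.12 for all, of which 36% were called higher. Changes are of log2(signal + 32), which understates those of dim probe sets. The direction held under trimmed mean, quantile (median 0.19) and median scaling (0.68), while scaling to the hybridization controls moved the median to 0.07 and left 1 higher call, and scaling to an older set of those controls moved it to -0.09. The median of RNA polymerase II lay above that of all tested probe sets under each of these scalings.

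The signal of Polr2a was 1438, 1314, 1382 and 1312 in controls 1 to 4, 1261, 1510, 1513 and 1562 after 20 pulses, and 2025, 1895, 1862 and 1921 in Ca-free medium. All 4 Ca-free arrays lay above all other arrays. The log2 change in Ca-free medium was 0.49 (SE 0.076, adjusted p = 5.27e-04 by limma, n = 4 each). This was the only subunit still called higher with hybridization control scaling.

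Polr2b read 7093, 7480, 7460 and 7191 in control, 6885, 7474, 6859 and 7993 after 20 pulses and 9304, 9881, 8355 and 9686 in Ca-free medium. The Ca-free arrays were again the 4 highest (log2 change 0.35, SE 0.062, adjusted p = 0.00109 by limma).

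Among the smaller subunits, Polr2h, which is shared by all 3 nuclear polymerases, read 2471, 2572, 3080 and 2766 in control and 3711, 3504, 3364 and 3615 in Ca-free medium. The groups did not overlap (log2 change 0.38, SE 0.073). After 20 pulses Polr2h read 2268, 2332, 2558 and 2515, within or below the control range. Polr2i, a zinc-binding subunit at the jaw of the enzyme, read 2674, 2781, 3526 and 3574 in control and 3936, 4195, 4064 and 4409 in Ca-free medium (0.41, SE 0.091). Polr2j, a partner of Polr2c in the assembly core, read 2643, 3357, 3596 and 3611 in control and 4197, 4509, 3766 and 4617 in Ca-free medium (0.38, SE 0.098). The Polr2j call ended against controls 3 and 4 (0.24) and under quantile normalization (0.22). In Polr2i the lower control arrays were 1 and 2, the pair with more 18S signal.

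The stalk subunits Polr2d and Polr2g, which guide the new RNA out of the enzyme, rose by 0.27 each (adjusted p = 0.0106 and 0.0139 by limma). Polr2d read 1637, 1385, 1653 and 1663 in control against 1807, 1934, 2046 and 1895 in Ca-free medium, without overlap. Polr2g read 3655, 3661, 4189 and 3925 in control against 4803, 4487, 4109 and 5223, where Ca-free array 3 fell below control 3. Both stalk calls ended against controls 3 and 4 (0.21 for Polr2d and 0.19 for Polr2g). They also ended under quantile normalization (0.19 for Polr2d and 0.12 for Polr2g). The scaffold subunit Polr2c did not pass (log2 change 0.15, adjusted p = 0.0755 by limma), at 3130, 3320, 3781 and 3439 in control and 3947, 3766, 3537 and 3860 in Ca-free medium. Polr2m encodes Gdown1, a protein that binds the polymerase and makes it depend on Mediator. It did not pass either (-0.13, adjusted p = 0.0892 by limma) although every Ca-free array, at 2754, 3064, 2755 and 2748, lay below the lowest control array at 3068. Polr2m passed as lower under quantile normalization (-0.26), with hybridization control scaling (-0.34) and without Ca-free array 2 (-0.17), and as higher under median scaling (0.28).

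Polr2e and Polr2f, shared by all nuclear polymerases, each had probe sets called in opposite directions. The bright probe set of Polr2e read 2715, 2606, 2993 and 3221 in control and 3850, 3794, 3119 and 4268 in Ca-free medium (log2 change 0.37). That call ended against controls 3 and 4 (0.26) and under quantile normalization (0.22). The dimmer probe set of Polr2e fell, from 391, 409, 307 and 335 to 258, 234, 260 and 186 (-0.56). This lower call ended against controls 3 and 4 (-0.42), under quantile normalization (-0.29) and under median scaling (-0.19). For Polr2f the bright probe set read 5153, 5287, 6591 and 6780 in control and 7480, 6550, 6439 and 7129 in Ca-free medium (0.22, adjusted p = 0.0477 by limma). That call was the least stable of the 9: it ended without control 1 or 2 or without Ca-free array 1, 2 or 4 (0.15 to 0.24), without the filter, without the intensity trend and with only the 8 arrays compared. Against controls 3 and 4 its change was 0.04 and under quantile normalization 0.09, both without a call. The dimmer probe set of Polr2f fell without overlap, from 922, 712, 739 and 722 to 480, 486, 420 and 377 (-0.77, adjusted p = 6.60e-04 by limma). It kept that call under every alternative run for it, not counting scaling to the older hybridization controls. The probe sets of a gene are read from different stretches of its transcripts, and which stretches these are was not used here.

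**Figure D1:**
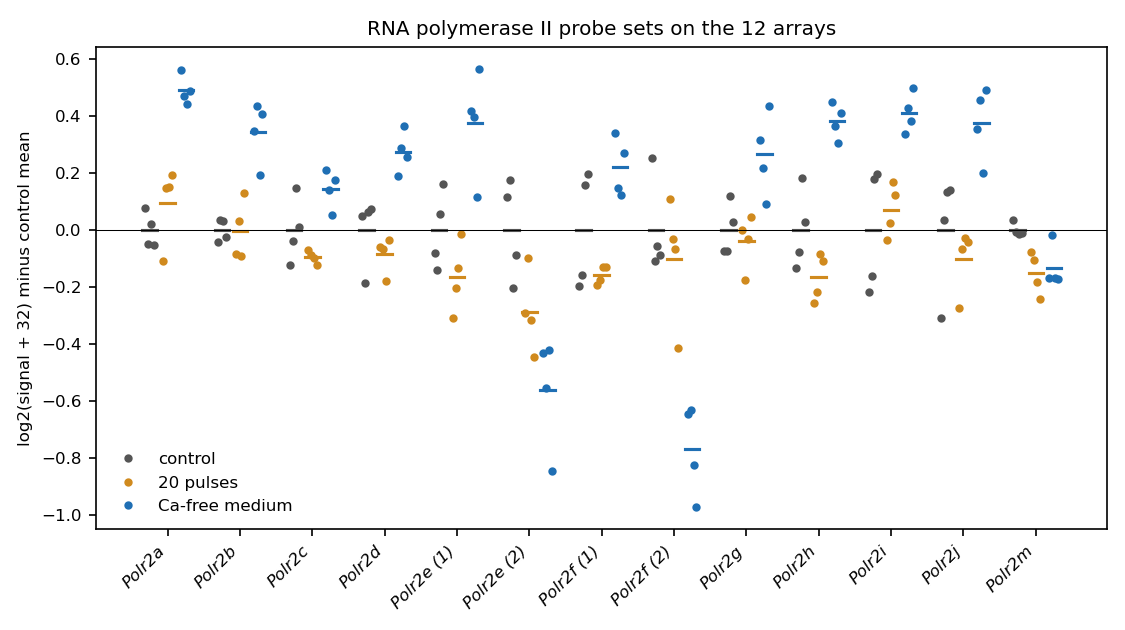
Each point is an array, and its height is log2(signal + 32) minus the mean of the 4 control arrays for the 13 tested RNA polymerase II probe sets, with group means as short lines. Where a gene has several probe sets, (1) is the brightest. Ca-free arrays lie above the control mean in all brightest probe sets except that of Polr2m, and below it in the dimmer probe sets of Polr2e and Polr2f.

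The polymerase rise was smaller against some control arrays than against others. In 8 of the 13 probe sets both controls 3 and 4 read above controls 1 and 2, against 21.8% of all tested probe sets, and the median log2 difference between the pairs was 0.15. Against controls 3 and 4 only, 4 subunits were called higher (Polr2a, Polr2b, Polr2h and Polr2i), and against controls 1 and 2 only, 10 were. Under quantile normalization the same 4 subunits kept their call. The median over the tested polymerase probe sets, taken on each array against the control mean, was 0.34, 0.29, 0.12 and 0.41 on Ca-free arrays 1 to 4. It was -0.07, -0.07, 0.06 and 0.03 on the controls and -0.08, -0.09, -0.09 and -0.04 after 20 pulses.

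Calls in Mediator went in opposite directions by module in Ca-free medium. Of its 57 tested probe sets 11 were called higher (19.3%) and 7 lower (12.3%), against 10.6% and 29.7% of all tested. The median log2 change was 0.04. Modules follow the assignment used here, which counts Med27, Med28, Med29 and Med30 in the head. All higher calls were in the head (5 of 18 probe sets) and the middle (6 of 16). All lower calls were in the tail (4 of 9), the kinase module (2 of 10) and the scaffold Med14 (1 of 4). The shares of the kinase module (20%) and the scaffold (25%) lay below the 29.7% of all tested. Counting Med29 in the tail instead would put a higher call there and change these shares and medians. The median change was 0.11 in the head, 0.10 in the middle, -0.31 in the tail and 0.01 in the kinase module. The lower calls were mainly in dim probe sets. From a mean signal of 100 to 300, 5 of 18 Mediator probe sets were called lower (27.8%), against 39% of all such probe sets. By the brightest probe set of each gene, the tail median was -0.02 with 1 of 5 genes lower (Med15), the kinase module and scaffold had 0 lower by limma (0 also at an unadjusted p under 0.05), and the head and middle had 5 higher each. Quantile normalization left 1 Mediator probe set lower. The difference between modules was not tested. Ca-free arrays 1 and 4 both read below arrays 2 and 3 in 26 of the 57 probe sets (45.6%, against 26.0% of all tested). With hybridization control scaling the Mediator median was -0.15, with 2 called higher and 15 lower, against 2.74% and 49.2% of all tested. Median scaling gave 32 higher and 1 lower, against 36.9% and 5.46%.

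In the head as assigned here, Med29 read 386, 315, 322 and 263 in control, 307, 236, 307 and 290 after 20 pulses and 563, 520, 558 and 612 in Ca-free medium. The Ca-free arrays stood clear of the other 8 (log2 change 0.76, SE 0.12, adjusted p = 5.36e-04 by limma). This call of Med29 held under every alternative run for it, not counting scaling to the older hybridization controls. Its other 2 tested probe sets, at mean signals of 210 and 107, gave changes of 0.02 and 0.07 and were not called. Med6, which contacts the polymerase, read 1178, 1102, 1262 and 1271 in control and 1464, 1721, 1661 and 1385 in Ca-free medium (0.36). Med11, a partner of Med22 at the base of the head, read 467, 474, 408 and 450 against 565, 526, 579 and 724 (0.38), a call that ended against controls 1 and 2 (0.32). Med17, the central subunit of the head, rose by 0.34 with overlap between the groups, and Med8 by 0.24.

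In the middle module, which joins the head to the rest of Mediator, Med19 rose in 1 of its 2 probe sets. It read 777, 824, 784 and 694 in control, 648, 733, 854 and 809 after 20 pulses and 1056, 1063, 1022 and 1219 in Ca-free medium. No Ca-free array overlapped with another group (log2 change 0.48, SE 0.096). Its other probe set changed by -0.07 and was not called. Med4, Med7 and Med31 rose by 0.35, 0.23 and 0.31, each without overlap with control.

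Med1, the subunit that binds nuclear receptors, had 2 of 5 tested probe sets called higher. The brightest read 1119, 1017, 617 and 675 in control, 1173, 1429, 1362 and 1298 after 20 pulses and 1126, 1304, 1511 and 1086 in Ca-free medium. Controls 3 and 4 were the low arrays here. The log2 change was 0.57 in Ca-free medium and 0.64 after 20 pulses (adjusted p = 0.0138 and 0.066 by limma). Against controls 1 and 2 only, the change in Ca-free medium was 0.22 and the call ended. The other called probe set of Med1 rose by 0.42.

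The tail held the largest decrease of any member, in Med15, the tail subunit that many activators bind. Med15 read 847, 864, 932 and 742 in control, 864, 612, 758 and 681 after 20 pulses and 257, 425, 667 and 312 in Ca-free medium. Every Ca-free array lay below every control array, and arrays 1 and 4 lay below arrays 2 and 3. The log2 change was -1.05 (SE 0.20, adjusted p = 0.00168 by limma). It stayed called under every alternative run for it, not counting scaling to the older hybridization controls. A dimmer probe set of Med15 fell by 0.38 on the log2 scale, from 206 to 263 in control down to 131 to 203 in Ca-free medium.

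Other tail subunits had a called and an uncalled probe set each. A dim probe set of Med24 read 208, 229, 225 and 229 in control and 143, 176, 186 and 145 in Ca-free medium (log2 change -0.40). That change was -0.07 under quantile normalization and -0.05 under median scaling, without a call, and the call also ended against either control pair (-0.37 and -0.42). The brighter one of Med24 changed by -0.18 and was not called. For Med25 a probe set at 691, 776, 644 and 675 in control and 462, 516, 609 and 644 in Ca-free medium was called lower (-0.31, adjusted p = 0.0411 by limma). That call ended without control 1, 2 or 4 or Ca-free array 1 or 2 (-0.33 to -0.23), against either control pair and under quantile normalization (-0.24), and the change turned to 0.08 under median scaling. The other probe set of Med25 was at 0.21. Med16 (-0.02) and Med23 (0.19) were not called.

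The scaffold subunit Med14 runs through the whole complex, and its brightest probe set read 1024, 977, 838 and 876 in control and 851, 897, 939 and 804 in Ca-free medium (log2 change -0.08, adjusted p = 0.425 by limma). A dim probe set of Med14 fell from 247, 197, 188 and 223 to 136, 120, 178 and 101 (-0.58). That call ended under quantile (-0.25) and median scaling (-0.24) and against controls 3 and 4 (-0.54). Of the kinase module, Med12, which activates the kinase, was at -0.01, with 424, 423, 559 and 495 in control and 540, 380, 497 and 471 in Ca-free medium. The lower calls of this module were in dim probe sets of Med12l (-0.50) and Med13 (-0.87), each 1 of several for its gene.

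**Figure D2:**
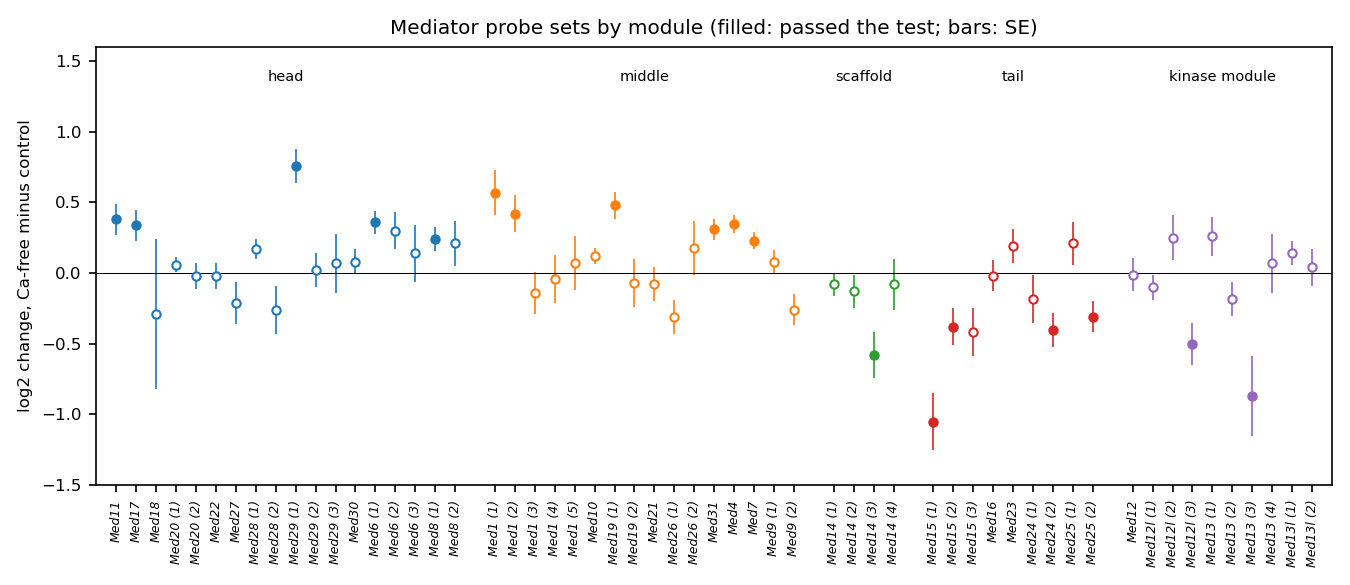
Points are the log2 changes of 57 Mediator probe sets in Ca-free medium against control, bars are standard errors, colours are modules and filled points passed the test. With Med29 counted in the head, filled points lie above 0 in the head and middle and below 0 in the scaffold, tail and kinase module.

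Med18, a head subunit, was high on array 1 of the control and pulses groups. It read 3075, 1129, 561 and 604 in controls 1 to 4, 3153, 779, 572 and 603 in pulses arrays 1 to 4 and 1106, 1132, 555 and 748 in Ca-free arrays 1 to 4. Its spread was wide enough that a log2 change of -0.29 in Ca-free medium was not called. Med18 was chosen for mention after its values were seen.

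The general factors were also called mostly higher in Ca-free medium. Of 17 tested probe sets 7 were called higher (41.2%) and 1 lower (5.88%), against 10.6% and 29.7% of all tested. The median log2 change was 0.09, and 6 of 11 tested genes had a higher call. All higher calls were in probe sets with a mean signal above 1000. They were 5 of 8 from 1000 to 3000 and 2 of 3 above 3000, against 26.2% and 36% of all such probe sets. With hybridization control scaling the median was -0.12 and the calls were 1 higher and 5 lower, against 2.74% and 49.2% of all tested. Gtf2f1, the large subunit of TFIIF, which escorts the polymerase to the promoter, rose in both probe sets. Its probe set with the larger change read 823, 838, 767 and 774 in control, 864, 1098, 1062 and 1242 after 20 pulses and 1603, 1398, 1226 and 1628 in Ca-free medium. The control arrays were the 4 lowest of the 12. The log2 change was 0.84 in Ca-free medium (SE 0.11, adjusted p = 2.53e-04 by limma). It stayed called under every alternative run for it, not counting scaling to the older hybridization controls. After 20 pulses it was 0.39 and did not pass (adjusted p = 0.0929 by limma). The second probe set of Gtf2f1 rose by 0.28, while Gtf2f2, the small subunit, was at -0.12 and not called.

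TFIIB, the single protein Gtf2b that sets the start site, read 2614, 2500, 2929 and 2915 in control and 3522, 3830, 3048 and 3631 in Ca-free medium (log2 change 0.35, SE 0.083). Against controls 3 and 4 it was 0.26 and under quantile normalization 0.21, both without a call. In TFIIE, which recruits TFIIH, both genes rose. Gtf2e2 read 2380, 2387, 2521 and 2418 in control, 2494, 2444, 2526 and 2611 after 20 pulses and 2953, 3215, 3026 and 2959 in Ca-free medium, with no overlap (0.32, SE 0.055). Gtf2e1 rose by 0.25 with overlap (adjusted p = 0.0476 by limma). In TFIIA, Gtf2a2 rose by 0.27 and 3 probe sets of Gtf2a1 changed by -0.24 to 0.07 without a call.

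TFIIH was split. Gtf2h5, its smallest subunit, read 4162, 4229, 4732 and 4647 in control and 5566, 5336, 4918 and 5871 in Ca-free medium (log2 change 0.29). The call ended against controls 3 and 4 (0.21) and under quantile normalization (0.14). Gtf2h3 fell, from 613, 602, 577 and 613 in control, past 622, 507, 489 and 536 after 20 pulses, to 397, 332, 402 and 390 in Ca-free medium. The Ca-free arrays were the 4 lowest (-0.62, SE 0.095, adjusted p = 5.07e-04 by limma), and only median scaling ended the call (-0.24). Gtf2h1 was at -0.03, and 3 tested probe sets of Gtf2h4 changed by 0.04 to 0.20 without a call.

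The TAFs had the smallest share of calls among these complexes in Ca-free medium. Of 33 tested probe sets 4 were called higher (12.1%, near the 10.6% of all tested) and 1 lower (3.03%, against 29.7%). The median log2 change was -0.00412, which was 0.09 under quantile normalization, 0.37 under median scaling and -0.20 with hybridization control scaling. Taf1, the largest TFIID subunit and a scaffold for the others, read 1335, 1369, 1250 and 1296 in control and 1114, 1108, 1428 and 1251 in Ca-free medium (-0.10, adjusted p = 0.335 by limma). Taf10, shared by TFIID and the SAGA coactivator, read 5830, 6239, 6718 and 6109 in control, 4595, 5968, 5852 and 5970 after 20 pulses and 7094, 6506, 6288 and 8136 in Ca-free medium. Its change of 0.16 from control was not called. Taf4 was at 0.02.

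Taf7, a TFIID subunit that restrains Taf1, had the largest increase of any member in 1 of 3 probe sets. That probe set read 407, 361, 270 and 297 in control, 482, 438, 676 and 409 after 20 pulses and 999, 514, 517 and 1098 in Ca-free medium. Ca-free arrays 1 and 4 stood highest, and all treated arrays of both kinds lay above every control array. The log2 change was 1.09 in Ca-free medium (SE 0.23, adjusted p = 0.00271 by limma). After 20 pulses it was 0.53 and did not pass (adjusted p = 0.269 by limma). The brighter probe set of Taf7 read 724, 631, 828 and 861 in control and 783, 706, 790 and 694 in Ca-free medium (-0.03), and the third was at 0.06. Taf4b, a gonadal variant of Taf4, rose in 1 of 3 probe sets (0.38), and Taf5 rose by 0.28. The Taf4b call ended without control 2 or Ca-free array 2 or 3 (0.31 to 0.34), against controls 3 and 4 and under quantile normalization (0.32 each), and with hybridization control scaling (0.17). Taf7l, a germ cell variant of Taf7, fell from 207, 169, 171 and 100 in control to 86, 80, 74 and 87 in Ca-free medium (-0.74).

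The TAFs that serve other machines were mostly uncalled. Taf5l and Taf6l of SAGA were at -0.08 and -0.15. Of the SL1 subunits, which act with RNA polymerase I on ribosomal DNA, Taf1a, Taf1b and Taf1c were at -0.11, -0.15 and -0.08, and 1 of 7 probe sets of Taf1d was called higher (0.26), though not against controls 3 and 4 (0.25) or under quantile normalization (0.15). The name of that probe set ends in _x_at, the array maker's mark for probes that may also read other transcripts.

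**Figure D3:**
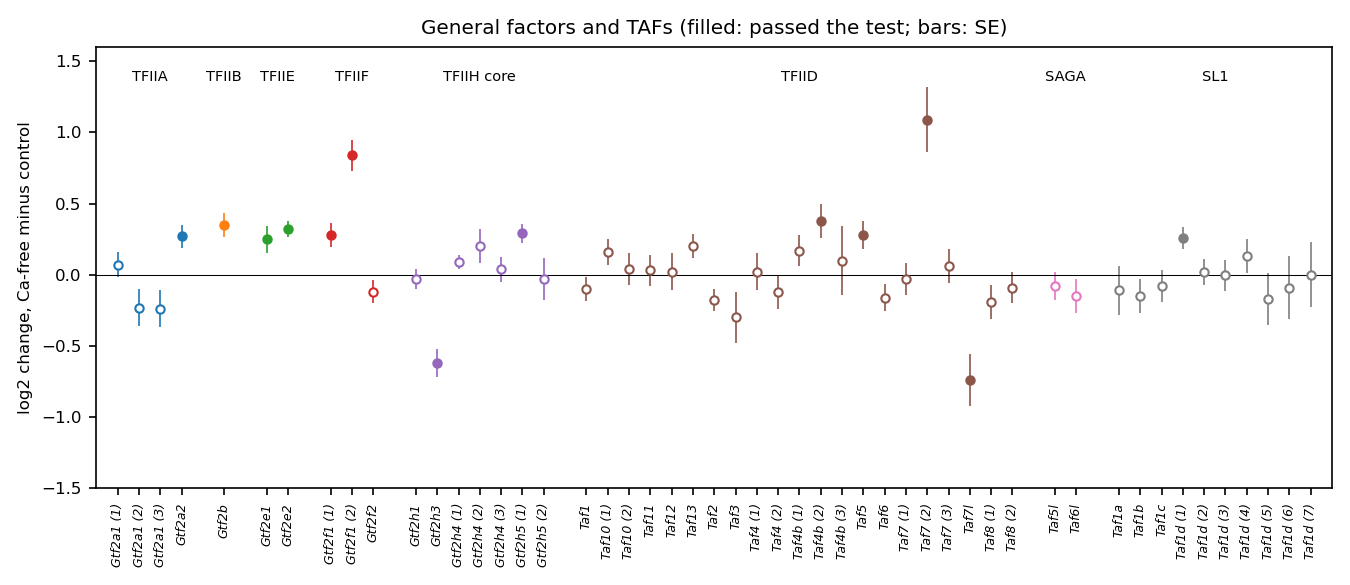
Points are the log2 changes of the general factor and TAF probe sets in Ca-free medium against control, with standard errors, grouped by complex, and filled points passed the test. Gtf2f1 (0.84) and Taf7 (1.09) are the highest points, and Gtf2h3 (-0.62) and Taf7l (-0.74) the lowest.

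Over all members, 31 of 120 tested probe sets (25.8%) were called higher and 11 (9.17%) lower in Ca-free medium, and the median log2 change was 0.04 against -0.18 over all tested. Calls differed by signal, in the members and in all probe sets. Of 27 members with a mean signal from 100 to 300, 0 were called higher and 7 lower by limma (0 and 8 at an unadjusted p under 0.05), where 2.39% and 39% of all such probe sets were. From 300 to 1000, 6 of 45 were higher and 4 lower, against 8.71% and 31%. From 1000 to 3000, 17 of 33 members were higher and 0 lower by limma (18 and 3 unadjusted), against 26.2% and 11.3% of all. Above 3000, 8 of 15 were higher and 0 lower by limma (11 and 0 unadjusted), against 36% and 4.14%. The median change in these upper 2 classes was 0.24 and 0.22 for members and 0.09 and 0.12 for all tested probe sets. RNA polymerase II had 11 of its 13 tested probe sets above a signal of 1000, of which 9 were called higher.

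**Figure D4:**
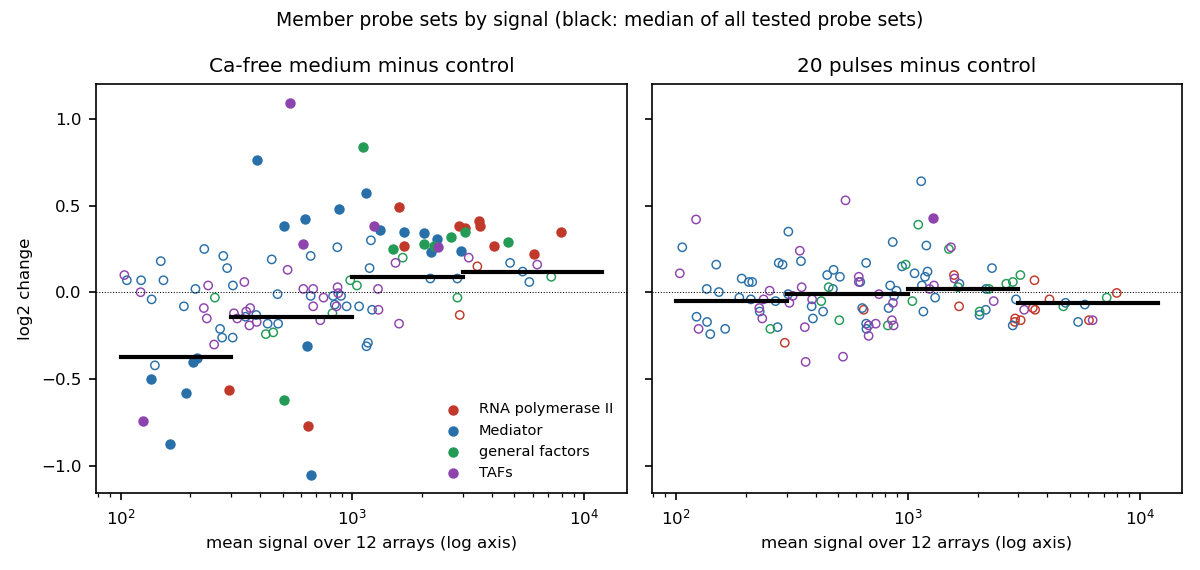
Each point is a member, placed by mean signal (log axis) and by log2 change in Ca-free medium (left) and after 20 pulses (right), filled where it passed the test. Black lines are the medians of all tested probe sets in 4 signal classes, which rise from -0.37 to 0.12 in the left panel.

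Probe sets of a gene followed the same order. Among 28 member genes with 2 or more tested probe sets, the brightest had the greater change in 21, with a median of 0.16 against -0.05 for the others. Counting each gene by its brightest tested probe set alone, 27 of 72 genes were higher and 3 lower in Ca-free medium (Med15, Gtf2h3 and Taf7l), where 12.3% and 28.8% of all genes were.

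**Figure D5:**
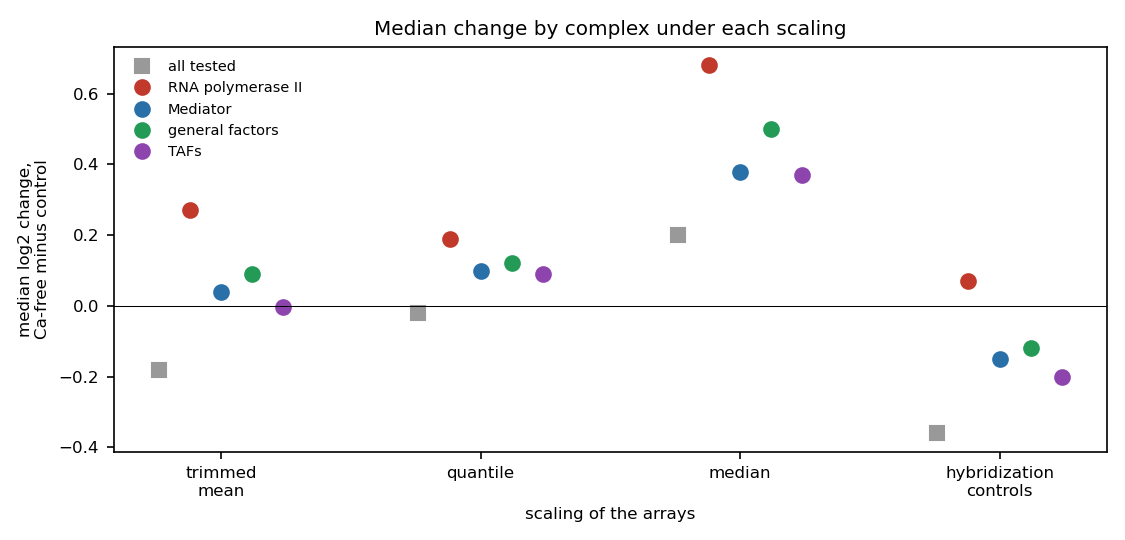
Median log2 change in Ca-free medium for all tested probe sets (squares) and for each complex (circles) under 4 ways of scaling the arrays. RNA polymerase II has the highest median under each scaling, from 0.68 under median scaling to 0.07 with hybridization controls, and all tested probe sets the lowest.

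After 20 pulses, 1 of the 120 tested members was called higher and 0 lower by limma, where 1.1% and 0.374% of all tested probe sets were. At an unadjusted p under 0.05, 7 were higher and 8 lower. The called one was a probe set of Taf1d, which read 1277, 1178, 1044 and 1091 in control, 1554, 1451, 1740 and 1503 after 20 pulses and 1272, 998, 1136 and 1244 in Ca-free medium. The pulses arrays were the 4 highest (log2 change 0.43, SE 0.093, adjusted p = 0.0332 by limma). The call ended with replicate number as a block (adjusted p over 0.05) and when any of controls 2, 3 and 4 or any pulses array was left out (0.38 to 0.47). It also ended against controls 1 and 2 only (0.34) and without the intensity trend. Of the other 6 tested probe sets of Taf1d, 5 were below 0 and 1 was at 0.42, and none was called by limma. The polymerase median was -0.10 and that of all tested probe sets -0.03. Scaling to the hybridization controls gave 7 of 120 members higher after 20 pulses, where 7.59% of all tested probe sets were.

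Between the treatments, which is the test of whether the 2 changes from the shared controls differ, 31 of 120 members were higher and 12 lower in Ca-free medium than after 20 pulses (9.22% and 23.4% of all tested probe sets). In RNA polymerase II 10 of 13 were higher and 1 lower, with a median log2 difference of 0.35. Against probe sets of like signal the gap was smaller. Above 3000, 7 of 7 were higher (median 0.35), against 51.8% of all such probe sets (0.18). From 1000 to 3000, 3 of 4 were (0.38), against 17.8% (0.05). Polr2c, not called against control, was higher here (0.24, adjusted p = 0.0114 by limma), as were Polr2h (0.55) and Polr2e (0.54). Mediator had 10 of 57 higher, led by Med29 (0.91), and 7 lower, led by Med15 (-0.84). The general factors had 6 of 17 higher and 1 lower, the latter Gtf2h3 (-0.47). Among the TAFs 5 of 33 were higher, including Taf10 (0.32), and 3 lower. The changes of Med1 (-0.07) and Taf7 (0.55, adjusted p = 0.0766 by limma) did not differ beyond the threshold, with SE 0.16 and 0.23. With hybridization control scaling 1 member was higher and 61 lower in this comparison, against 0.329% and 71.0% of all tested probe sets. Under median scaling 67 members were higher and 1 lower, against 31.6% and 3.52%.

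Of 48 further genes of RNA polymerase II transcription, 98 probe sets were tested, and 19 were called higher (19.4%) and 13 lower (13.3%) in Ca-free medium, against 10.6% and 29.7% of all tested probe sets (median log2 change -0.04 against -0.18). After 20 pulses 0 were called in either direction by limma, where 1.1% and 0.374% of all were, and 11 higher and 4 lower at an unadjusted p under 0.05. TBP, the TATA-binding subunit of TFIID, was at 0.09 and not called. Its partners Dr1, a repressor of TBP, and Btaf1, the ATPase that removes TBP from DNA, rose (0.58, and 0.24 and 0.32 in the called probe sets of Btaf1). The TFIIH helicase Ercc3 (0.31), the kinase Cdk7 (0.33) and its cyclin Ccnh (0.22) rose in 1 probe set each, and the other 4 of Cdk7 were at -0.29 to -0.16 without a call. None of 7 tested probe sets of the Mediator kinase genes Cdk8, Cdk19 and Ccnc was called by limma (1 higher and 1 lower at an unadjusted p under 0.05). Among elongation factors 10 of 51 probe sets rose, such as the histone chaperone gene Supt16 (0.90 and 0.53) and the 7SK-binding Larp7 (0.44), and 8 fell, such as Ccnt2, a cyclin of P-TEFb (-0.86), and the NELF subunit Nelfe (-0.47). Of the polymerase assembly factors and tail phosphatases, Rpap2 (0.55) and Ssu72 (0.45) rose and probe sets of Rpap1 (-0.51), Rprd1a (-0.53) and Rprd1b (-0.62) fell.

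Promoter sequence of 4 members with large changes is printed from the RefSeq annotation (GRCm38.p6), 250 bases before to 50 bases after the annotated gene start, 5′ to 3′ on the strand of the gene. Sequences of 67 of the 77 member genes were matched, and Taf7 was not among them. These 4 are shown because Polr2a, Med29 and Gtf2f1 had the largest increase of their complex in Ca-free medium and Med15 the largest decrease. Capitals mark matches on either strand to 5 promoter motifs. The motif CCGGAAG is bound by ETS factors. The motif AAGATGGC is bound by YY1. The NRF1 motif was searched too. The motif TATAAA is the core of the TATA box. The motif CCAAT is bound by NF-Y.
Polr2a, chr11:69758584-69758883, minus strand: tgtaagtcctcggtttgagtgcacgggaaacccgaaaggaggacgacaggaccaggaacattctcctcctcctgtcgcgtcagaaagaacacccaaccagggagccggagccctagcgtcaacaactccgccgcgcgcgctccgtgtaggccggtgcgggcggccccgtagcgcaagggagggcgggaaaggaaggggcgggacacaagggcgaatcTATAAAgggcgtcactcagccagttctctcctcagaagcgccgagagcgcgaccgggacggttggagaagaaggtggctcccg
Med29, chr7:28392641-28392940, minus strand: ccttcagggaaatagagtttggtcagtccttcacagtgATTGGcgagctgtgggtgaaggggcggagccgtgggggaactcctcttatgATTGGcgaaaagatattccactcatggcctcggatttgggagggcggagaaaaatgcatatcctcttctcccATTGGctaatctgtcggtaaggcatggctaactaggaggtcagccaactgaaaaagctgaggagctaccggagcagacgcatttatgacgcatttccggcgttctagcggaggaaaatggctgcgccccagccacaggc
Gtf2f1, chr17:57011239-57011538, minus strand: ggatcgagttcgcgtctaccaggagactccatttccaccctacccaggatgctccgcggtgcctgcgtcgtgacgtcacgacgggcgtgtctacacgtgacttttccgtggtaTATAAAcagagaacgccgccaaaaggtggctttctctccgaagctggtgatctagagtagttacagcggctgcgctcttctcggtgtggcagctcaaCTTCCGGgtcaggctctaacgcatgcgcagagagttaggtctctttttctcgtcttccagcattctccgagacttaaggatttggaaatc
Med15, chr16:17722898-17723197, minus strand, 1 of 2 listed starts: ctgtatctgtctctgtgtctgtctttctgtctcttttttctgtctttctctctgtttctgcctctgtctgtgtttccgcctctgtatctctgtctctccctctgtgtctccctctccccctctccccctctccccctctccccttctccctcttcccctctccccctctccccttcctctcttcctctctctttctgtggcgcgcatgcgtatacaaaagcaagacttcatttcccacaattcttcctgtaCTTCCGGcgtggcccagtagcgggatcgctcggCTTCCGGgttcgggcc

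The Polr2a window holds TATAAA beginning 33 bases before the start. The Med29 window holds CCAAT, read on the opposite strand, at 212, 161 and 89 bases before the start. The Gtf2f1 window holds TATAAA at 137 bases and CCGGAAG on the opposite strand at 40 bases before the start. The Med15 window holds CCGGAAG on the opposite strand at bases 2 and 35 of the transcript. Over the 81 listed windows of member genes 30.9% held CCGGAAG, against 8.86% of 32851 windows in all, and 9.88% held AAGATGGC against 2.75%. TATAAA was found in 14.8% against 13.6%, CCAAT in 34.6% against 37.4% and the exact NRF1 string in 0 of 81 windows against 0.971%. In the 26 windows of genes whose brightest probe set rose in Ca-free medium, CCGGAAG was found in 30.8%, close to the share over all member windows. The median GC content was 58% in member windows and 52.7% in all.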

How the data were processed

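Total RNA of mouse blastocysts was amplified, labelled with biotin and hybridized to 12 arrays, 4 per group, per the labels' protocols. The deposited values are intensity signals made with MAS5, per the submitters' processing notes, and the authors had scaled every array to the same trimmed mean, as the deposited values show. Each array was rescaled here to a 2% trimmed mean of 500. The 27808 probe sets that averaged 100 or more were tested. The values log2(signal + 32) were tested with limma 3.58.1 in R 4.3.3, all arrays in 1 fit with an intensity trend. Benjamini-Hochberg adjustment ran over all tested probe sets, with a threshold of 0.05. The fit was tested on simulated data first. It recovered 40% of 100 changes of 1.5 times and 73% of 100 changes of 2 times. Far fewer probe sets were changed there than were called here in Ca-free medium, so these shares need not hold for the real arrays. Arrays give no read depth, and their number limits the precision.

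Genes came from the platform annotation, in which 34945 probe sets had 1 gene, 932 several and 9160 none, and 34741 of the first were matched to RefSeq. Named by rule were the brightest probe set of each polymerase subunit, in each other complex up to 4 called increases and 4 decreases without overlap between groups and with a mean of at least 200 in the higher group, a list of 9 central subunits, genes with probe sets called in opposite directions, and members that differed between treatments by at least 1 on the log2 scale. Further members were named after their values were seen. The members and lists were chosen with earlier results of these data known. The labels give no pairing, and replicate number was not in the main fit. Deviations of same-numbered arrays correlated at 0.0156 on average, against -0.00521 for other pairs. Such averages over all tested probe sets cannot exclude shared collections or pairing in single probe sets. Alternatives covered scaling, the added value, the filter, the fit, the threshold, each control pair and each array left out.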

Additional observations from a re-analysis of the deposited data

Results flagged for a closer look

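Among 132 groups of 4 arrays checked for the named probe sets, 11 held an array far from the other 3, and chance flags about 1 in 20 such groups. In control, array 2 of Polr2d read 1385 where the others read 1637 to 1663. Control array 1 of Polr2m read 3176 (others 3068 to 3082), and Ca-free array 2 of Polr2m read 3064 (others 2748 to 2755). Control array 1 of the dimmer Polr2f probe set read 922.4 against 712.2 to 738.6.

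Ca-free array 2 of Gtf2h3 read 331.6 against 390.4 to 401.5, lower than the others in a group that lay below control throughout. Pulses array 3 of Taf4 read 761.1 (others 589.4 to 603.1), and pulses array 1 of Taf10 read 4595 (others 5852 to 5970). The remaining 4 were in Taf1d. One of its probe sets read 552.1 on control array 2 (others 548.4 to 549.0) and 323.0 on pulses array 1 (others 450.8 to 457.8). A second read 527.7 on control array 1 (others 355.3 to 362.0), and another read 76.36 on Ca-free array 2 (others 111.5 to 118.6).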

How the results depend on the processing

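Counts are given as called higher and lower in Ca-free medium against control unless stated, and the cause of each shift was not tested. Of all tested probe sets 9.88% were higher and 9.91% lower under quantile normalization and 36.9% and 5.46% under median scaling. Hybridization control scaling gave 2.74% and 49.2%, and the older controls 1.01% and 66.1%. Between treatments these shares were 5.12% and 4.96%, 31.6% and 3.52%, 0.329% and 71.0%, and 0.128% and 84.1%. Against 31 and 11 members, quantile normalization gave 18 and 5 (RNA polymerase II 4 higher, Mediator 1 lower, general factors 2 higher, other transcription genes 5 lower) and 19 and 5 between treatments. Median scaling gave 75 and 2 (RNA polymerase II 1 lower, Mediator 32 and 1, general factors 13 and 0, TAFs 19 and 0, other genes 52 and 1) and 67 and 1 between treatments. Hybridization control scaling gave 5 and 31 (RNA polymerase II 1 higher, Mediator 2 and 15, general factors 1 and 5, TAFs 1 and 8, other genes 5 and 33), 1 and 61 between treatments, and 7 members and 9 other genes higher after 20 pulses. An older set of these controls, chosen after seeing the data, gave 3 and 57 (RNA polymerase II 0 higher, Mediator 1 and 27, general factors 1 and 8, TAFs 1 and 19, other genes 0 and 52), 1 and 84, and 4 members and 4 other genes higher after 20 pulses. With controls 3 and 4 only, counts were 17 and 3 (RNA polymerase II 4 and 1, Mediator 1 lower, general factors 3 higher, TAFs 2 and 0, other genes 5 lower), and after 20 pulses 3 and 1 members and 7 other genes higher. With controls 1 and 2 only, general factors and TAFs had 2 lower each and 0 members rose after 20 pulses. An adjusted p under 0.01 left 17 and 5 (Mediator 6 and 1, general factors 4 higher, TAFs 1 higher, other genes 9 and 4), 20 and 5 between treatments and 0 higher after 20 pulses. A minimum signal of 300 left 4 lower (RNA polymerase II 1, Mediator 2, TAFs 0, other genes 5), 7 lower between treatments, and after 20 pulses 2 members higher and 1 other gene each way. The brightest probe set of each gene left 3 lower (RNA polymerase II 0, Mediator 1, other genes 3), 2 TAFs higher, 6 lower between treatments and 0 higher after 20 pulses. Fits without the intensity trend gave 0 members higher after 20 pulses, and array weights gave 3 members higher and 1 other gene each way. No filter gave 2 general factors lower, and an added value of 100 gave 1 other gene lower after 20 pulses. With the replicate number as a block, 0 members were higher and 1 other gene lower after 20 pulses, and the other counts lay within 1.5 times of those without the block.

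Leaving out 1 array at a time gave 26 to 30 members higher and 8 to 13 lower, 0 to 2 higher and 0 to 0 lower after 20 pulses, and 25 to 31 higher and 7 to 15 lower between treatments. The ranges were 8 to 10 and 2 to 3 for RNA polymerase II, 9 to 12 and 4 to 7 for Mediator, 6 to 7 and 1 to 2 for general factors and 2 to 4 and 1 to 2 for TAFs. Other genes gave 14 to 18 and 9 to 14, and after 20 pulses 0 to 0 and 0 to 1.

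Across the planned settings 100 values of named probe sets turned sign, 11 with controls 1 and 2 only and 10 with controls 3 and 4 only. Fits that left out 1 array and scaling to the older hybridization controls are not counted here. Of the 100, 79 passed the test neither before nor after. Among these were 27 with hybridization control scaling, 13 under median scaling and 13 under quantile normalization. The 21 that passed on at least 1 side all came from 2 scalings. Median scaling turned Polr2m to 0.28, Med25 to 0.08, Med12 to 0.38, Med14 to 0.31, Taf1 to 0.30, Taf7 to 0.37 and a Taf1d probe set to 0.40 against control, and Med14 to 0.13 and Taf7 to 0.35 between treatments. Hybridization control scaling turned differences between treatments to -0.02 for Polr2b, -0.13 for Polr2c, -0.00355 for Polr2d, -0.06 for Polr2g, -0.03 for Polr2i, -0.35 for Polr2m, -0.11 for Gtf2b, -0.10 for Gtf2e2, -0.00326 for Gtf2h5, -0.01 for Taf4b, -0.05 for Taf1d and -0.04 for Taf10. Of 28 named probe sets called against control, 7 kept direction and call under every alternative run for them, with the older hybridization controls again not counted. These were those of Polr2a, Med29, Med19, Med15, Gtf2f1 and Taf7 and the dimmer one of Polr2f. Scaling to the older controls left 0 RNA polymerase II probe sets called higher, so the Polr2a call ended there. It left 1 Mediator probe set higher, so Med29 and Med19 did not both keep their calls.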
